A study of Mus musculus with 2 samples.

Results

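Mature B cells keep their identity through a small set of transcription factors, and the accessible chromatin around the genes of 9 such factors is described here in resting mouse splenic B cells. The genes were Pax5, Ebf1, Tcf3, Foxo1, Bach2, Bcl11a, Pou2af1, Pou2f2 and Id3. They are a list of names, with no measured value in the rule, and were listed with earlier results of these data known. A DNase I hypersensitive site (DHS, a stretch of chromatin cut readily by the endonuclease DNase I and called as a peak) was assigned to a gene when it overlapped the gene body or the 50 kb on either side by at least 1 bp. By this rule 178 of the 47542 DHS of the deposited list lay in the 9 windows, which summed to 2089 kb of the mm9 genome.

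Commitment to the B lineage rests on E2A, the product of Tcf3, on EBF1 and on PAX5, which act in a network in which they activate B lineage genes and, in the case of PAX5, also repress genes of other lineages. FOXO1, BACH2 and BCL11A act beside them in development and in the mature cell, where BACH2 holds back plasma cell differentiation. OCT2, the product of Pou2f2, binds the octamer of immunoglobulin promoters with its coactivator OBF1, the product of Pou2af1, while ID3 has no DNA-binding region of its own and blocks E2A by binding it.

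The cells came from spleens of C57/Bl6 mice of 8 weeks with the genotype Trp53+/+ and a mock treatment, and were enriched with magnetic beads against B220, a surface protein of B cells. Per the study, apoptotic cells were first removed on a Ficoll gradient. Digests at several DNase I concentrations were made, and those to be sequenced were chosen by their signal-to-noise ratio. There was 1 DNaseI library and 1 input library, both of that background and treatment, and only the former had a peak list. With no replicates, no difference below has a replicate check and none carries a p-value. The 95% intervals cover counting error only. The list holds no reads, so depth is unknown, and the absence of a DHS means that none was called. Each DHS carries the score of the peak caller, whose scale is not stated and which was used only to rank DHS within the list (median 32.65, range 5.05 to 619). A DHS was a promoter DHS when it touched the 5 kb before or the 2 kb after any annotated transcription start site (TSS) of GENCODE M1, and an own promoter DHS when that TSS belonged to the gene in question. All others were distal. The label of the cells was set against marker genes: an own promoter DHS was found at 6 of 6 B cell markers (median score 110), at 0 of 6 T cell markers, at 3 of 6 myeloid markers (18.2 to 51.1) and at 2 of 6 erythroid markers, of which Klf1 scored 177.81. The share over all protein-coding genes was 57.0%, so the myeloid count was near the background. A promoter window can also hold the start of a neighbouring gene, and the part of other cells in the results was not tested.

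The strongest distal DHS of a gene ranged from an intronic site above its promoter in score to a small site beside a short gene, and a stretch of 100 bases is shown for 5 of them. Each stretch is the part of the DHS holding the most different words out of 10 short words that the B cell factors and their partners bind, read 5′ to 3′ on the plus strand of mm9, with the matches in capitals. They lie in an intron of Pax5 (chr4:44682556-44682655), an intron of Ebf1 (chr11:44578503-44578602), intergenic sequence downstream of Foxo1 (chr3:52201368-52201467), an intron of Bach2 (chr4:32445756-32445855) and intergenic sequence downstream of Id3 (chr4:135704244-135704343).
Pax5: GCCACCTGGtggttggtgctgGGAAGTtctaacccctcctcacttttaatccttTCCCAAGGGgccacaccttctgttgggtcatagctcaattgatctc
Ebf1: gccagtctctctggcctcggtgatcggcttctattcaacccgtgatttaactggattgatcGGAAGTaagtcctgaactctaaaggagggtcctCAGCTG
Foxo1: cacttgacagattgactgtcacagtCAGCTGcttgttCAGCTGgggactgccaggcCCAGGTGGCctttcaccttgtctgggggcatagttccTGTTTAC
Bach2: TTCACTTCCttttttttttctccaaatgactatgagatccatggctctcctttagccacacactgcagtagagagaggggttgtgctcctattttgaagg
Id3: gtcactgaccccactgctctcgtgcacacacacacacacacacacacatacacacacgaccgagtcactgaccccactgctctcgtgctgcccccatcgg
In the Pax5 stretch the capitals mark, from left to right, a CTCF word that overlaps an E box, a PU.1 word and the EBF1 word. In the Foxo1 stretch they mark a pair of E boxes of the CAGCTG form, a CTCF word that overlaps an E box of the other form, and a forkhead word, which is the kind of site FOXO1 itself binds. The Ebf1 stretch holds a PU.1 word and an E box, and the Bach2 stretch an IRF-ETS composite word that overlaps a PU.1 word. The Id3 stretch holds none of the 10 words and consists in part of a CA repeat. The whole Pax5 DHS held 23 matches and the whole Foxo1 DHS 22, against 6 in that of Ebf1, 6 in that of Bach2 and 0 in that of Id3. These DHS also differed in width, from 6076 bp at Pax5 to 739 bp at Id3, and a wide DHS offers more sequence to match. A match describes the letters only.

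All 9 windows were richer in DHS than the median protein-coding gene. They held 8.52 DHS per 100 kb (7.31 to 9.87, exact Poisson interval), which was 4.74 times (4.07 to 5.49) the density of the genome. The median over the 9 genes was 8.70 per 100 kb, against 3.39 over 22350 protein-coding genes measured in the same way and 5.61 over those with an own promoter DHS. The order ran from Id3 (17.6, interval 10.4 to 27.8) and Tcf3 (14.5, interval 8.59 to 22.9) through Pou2f2 (9.997), Foxo1 (9.90), Pou2af1 (8.70), Bach2 (7.38), Bcl11a (7.14) and Ebf1 (7.13) to Pax5 (6.06, interval 3.53 to 9.71). The intervals of all neighbours in this order overlapped, and those of Id3 and Pax5 did not. The longest genes had the most DHS but not the highest densities. Ebf1, with a body of 391 kb, had 35 DHS and Bach2, with 347 kb, had 33, whereas Id3 had 18 around a body of 2.26 kb.

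Against protein-coding genes, the windows differed more in distal DHS than in the total. Distal density was not compared with that of other B cell factors. Of the 178 DHS, 118 were distal (66.3%, Wilson interval 59.1 to 72.8), against 52.5% of all DHS and 49.5% of the DHS in windows of protein-coding genes. A further 30 were own promoter DHS and 30 lay at promoters of other genes. Most DHS were distal in each gene except Tcf3 (4 of 18) and Bcl11a (4 of 14). Ebf1 (28) and Bach2 (23) gave the most distal DHS to the pooled share. The median distal density was 5.71 per 100 kb, against 0.873 over all protein-coding genes and 1.61 over those with an own promoter DHS, and 9 of 9 genes lay above the latter. In total density 2 of the 9 genes, Id3 and Tcf3, reached the top 10% of protein-coding genes, and in distal density 7 did, all but Tcf3 and Bcl11a. Of the distal DHS, 65 lay in the gene body, 33 upstream and 20 downstream. The distal DHS were not of unusual score, with a median of 26.3 (20.9 to 34.2) against 24.3 for all 24945 distal DHS, and their median GC content was 47.2% in both sets. Which gene a distal DHS serves is not given by its position. Among TSSs of protein-coding genes, the nearest belonged to the gene of the window for 140 of the 178 DHS, some of which lay at promoters of noncoding genes, and the share varied. All 18 DHS of Foxo1 and all 11 of Pou2af1 did so, against 5 of 18 at Tcf3, 6 of 14 at Pou2f2 and 11 of 18 at Id3.

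**Figure D1:**
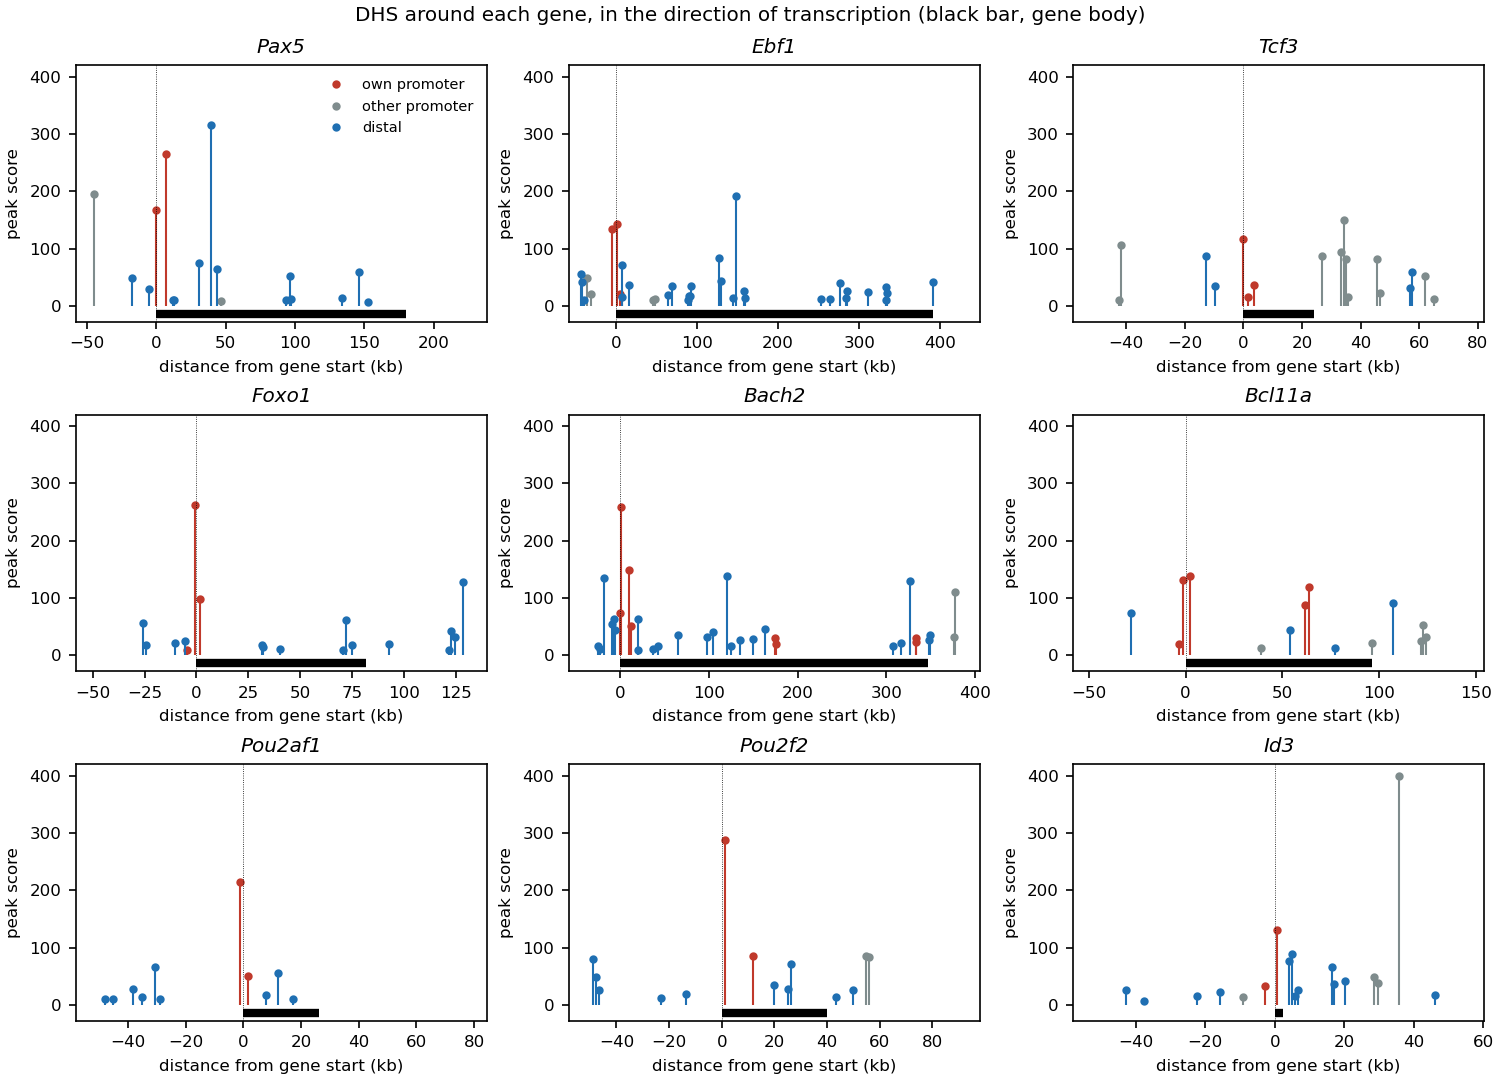
DHS in the window of each gene, plotted by the distance of their centre from the gene start (kb, in the direction of transcription) against the score of the peak caller; red marks own promoter DHS, grey DHS at promoters of other genes, blue distal DHS and the black bar the gene body. In Pax5 and Ebf1 the tallest distal line, at 314.98 and 191.24, stands above the promoter lines, and in the other 7 genes it does not.

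**Figure D2:**
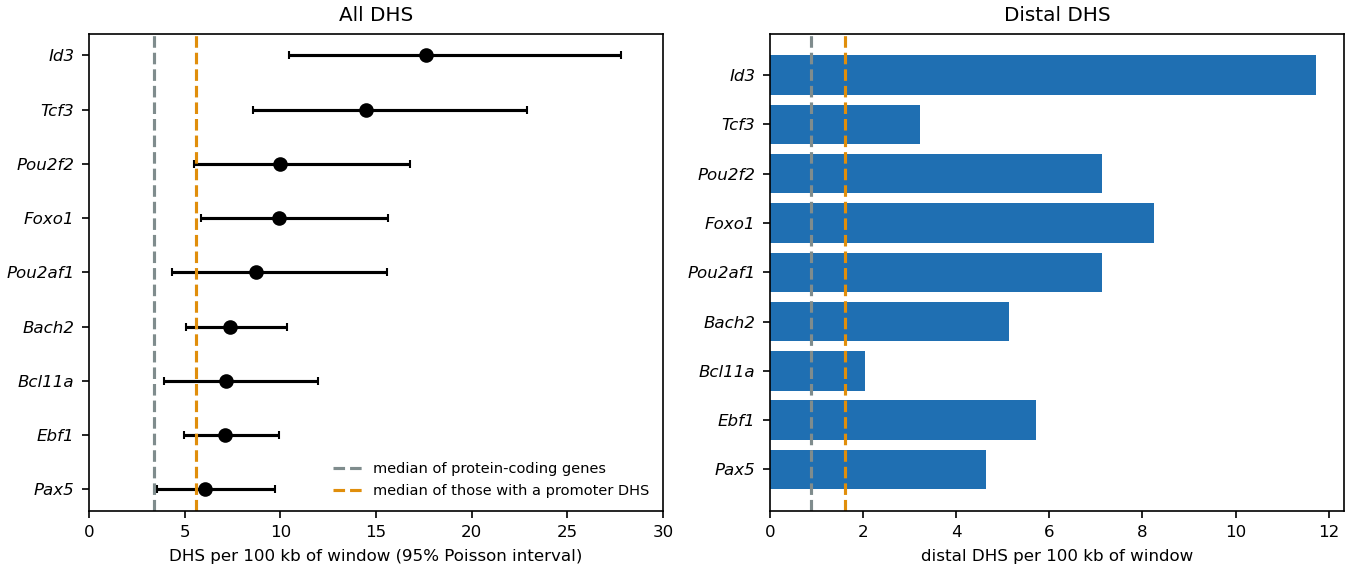
DHS per 100 kb of window for the 9 genes, all DHS at the left with exact Poisson intervals and distal DHS at the right; the dashed lines are the medians of all protein-coding genes (grey) and of those with an own promoter DHS (orange). Every gene lies to the right of both lines in both panels.

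Each of the 9 genes had a DHS at its own promoter, which 57.0% of protein-coding genes had. The strongest one scored 288.45 at Pou2f2, 265.27 at Pax5, 263.02 at Foxo1, 259.48 at Bach2, 213.58 at Pou2af1, 141.97 at Ebf1, 137.93 at Bcl11a, 131.03 at Id3 and 116.2 at Tcf3. The median was 214, against 101 over the 12747 protein-coding genes with an own promoter DHS. All 9 scores were above that value, and they fell into 5 genes at 213.58 or more and 4 genes at 141.97 or less. Tcf3 lay at percentile 59.0 of those genes and Pou2f2 at percentile 95.4. High scores were found at starts with many CpG and at starts with few. Starts counted as CpG-rich where, over 1000 bp, GC reached 55% and CpG occurred at 0.6 or more of the frequency its bases predict. This held for Tcf3, Foxo1, Bach2 and Bcl11a. Foxo1 had a CpG ratio of 1.05 and Pou2af1 of 0.311, and the 150 bases before their starts show the contrast, with CpG in capitals, on the plus strand, at chr3:52072109-52072258 and chr9:51021645-51021794.
Foxo1 promoter: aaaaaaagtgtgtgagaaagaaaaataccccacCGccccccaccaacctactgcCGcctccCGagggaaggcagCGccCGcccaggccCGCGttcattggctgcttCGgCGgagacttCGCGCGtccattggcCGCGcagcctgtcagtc
Pou2af1 promoter: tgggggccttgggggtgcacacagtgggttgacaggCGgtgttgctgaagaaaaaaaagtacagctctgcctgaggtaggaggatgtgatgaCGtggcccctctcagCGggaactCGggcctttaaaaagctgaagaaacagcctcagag
These stretches hold 14 and 4 CpG, and the DHS covered all 150 bases of each.

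The own promoter DHS were also wide. The widest spanned at least 3 kb in 5 of the 9 genes, namely Pax5 (6909 bp), Pou2f2 (5238 bp), Bcl11a (4494 bp), Ebf1 (4350 bp) and Pou2af1 (3783 bp), against 3.88% of protein-coding genes with an own promoter DHS. The widest measured 2662 bp at Foxo1, 2183 bp at Id3, 2062 bp at Bach2 and 1876 bp at Tcf3. The median width was 3783 bp against 1400 bp. Such width was shared by other B cell factors (10 of 15, below). The 9 genes had a median of 5 annotated TSSs against 2 for protein-coding genes, and a gene with more TSSs has more sequence in which a DHS counts as its own. The effect of this on score and width was not tested. Of their 45 TSSs, 27 were covered by a DHS (60.0%), against 40.1% of 69930 TSSs of protein-coding genes.

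Several genes had DHS at more than 1 start. At Pax5, on chromosome 4 (44544017 to 44724318, minus strand), the wide DHS at 44720870 to 44727778 with a score of 167.27 covered the 4 TSSs within 1038 bp of the gene start. A DHS of 5519 bp with the higher score of 265.27 covered a pair of internal TSSs 7440 and 8033 bp into the gene. Pax5 is known to be transcribed from a distal and a proximal promoter with separate first exons. Ebf1 too is known to have a distal and a proximal promoter. Its window, on chromosome 11, held a DHS of 4350 bp over the 3 TSSs at the gene start (score 141.97) and, centred upstream at -5.003 kb from the gene start, a DHS of 3332 bp with nearly the same score (133.28). No annotated TSS of Ebf1 lay in the latter. At Bcl11a, a zinc finger repressor on the same chromosome, the DHS at the gene start scored 137.93, a DHS just upstream of it 131.66, and an internal TSS 64323 bp into the gene was covered by a DHS of 119.07. At Pou2f2 an internal TSS 11630 bp from the gene start lay in a DHS of 84.43. Bach2 had 8 own promoter DHS, more than any other of the 9 genes, yet only 1 of its 8 TSSs was covered. Its strongest promoter DHS (259.48) began 208 bp after the first TSS and covered the TSS 273 bp from it. Bach2 also had the longest stretch without a DHS within the body of any of the 9 genes, 131 kb, followed by Ebf1 with 93.0 kb.

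The strongest distal DHS outscored the strongest own promoter DHS in 2 of the 9 genes, Pax5 and Ebf1. This is close to the background of 26.5% of protein-coding genes that have both kinds. With distal DHS of the gene body alone it was 2 of 7, where the background was 18.9%. In both genes the site lay in an intron of the annotated transcript. At Pax5 it was in intron 5 at 44681885 to 44687960, 39.4 kb from the gene start, with a width of 6076 bp and a score of 314.98, above 99.2% of all DHS. An enhancer in intron 5 of Pax5 is known that binds PU.1 and IRF factors, and whether it is this DHS was not tested. Of the 118 distal DHS 1, this one, was at least 3 kb wide (0.847%), against 0.425% of all distal DHS. The other distal DHS of Pax5 scored from 7.5 to 74.64, the highest of them in intron 4. At Ebf1 the site was in intron 6 at 44577524 to 44579379, 148 kb from the gene start, with a score of 191.24, against 141.97 at the promoter. The next distal DHS of Ebf1 scored 82.65 and lay in the same intron.

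In the other genes the distal sites scored lower than the promoter. Foxo1 reached 127.58 at a site 2760 bp wide that lay 129 kb from the gene start and downstream of the gene, while the highest distal DHS in its long intron 1 scored 62.46. Bach2 had 3 distal DHS of nearly equal score. They lay in intron 2 (137.87, 120 kb from the gene start), upstream (135.11, at -18.9 kb) and at 32651034 to 32652626 near the end of the gene (129.22), where the site overlapped an exon of another annotated transcript and none of Bach2. Bcl11a had 4 distal DHS, the highest downstream of the gene (92.08). The strongest distal DHS of Pou2af1 (65.78) lay upstream at -30.5 kb from the gene start and that of Tcf3 (86.71) at -12.7 kb. At Pou2f2 it (80.66) lay upstream at -49.1 kb, nearest to D930028M14Rik. At Id3 the strongest (88.48) and the next (76.97) lay 4.88 and 3.99 kb from the gene start, just downstream of the short gene. The highest DHS in the Id3 window was at another gene, the promoter of E2f2 (398.66, 5163 bp wide), and in the Tcf3 window it was at Mbd3 (149.43). At Tcf3, 11 of 18 DHS belonged to promoters of other genes. The median of the strongest distal scores was 92.08 for the 9 genes and 47.41 for protein-coding genes with an own promoter DHS. The windows of the 9 genes held more distal DHS from which the highest was taken, and no allowance was made for this.

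**Figure D3:**
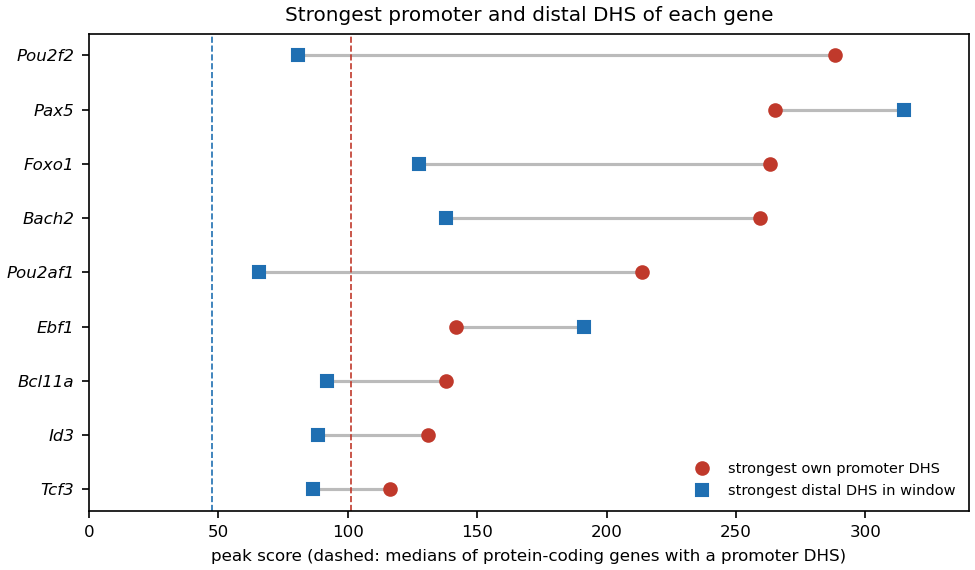
Score of the strongest own promoter DHS (red circles) and of the strongest distal DHS (blue squares) of each gene, with the medians of protein-coding genes with an own promoter DHS as dashed lines in the same colours. The blue square lies to the right of the red circle in Pax5 and Ebf1 only, and all 9 squares lie to the right of the blue line at 47.41.

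Most close relatives of the 9 genes had a lower promoter score or no own promoter DHS. Of 23 paralogs, 13 had an own promoter DHS (56.5%, exact binomial interval 34.5 to 76.8), about the background of 57.0%, with a median score of 43.7. The 10 without were Pax1, Pax2, Pax4, Pax7, Pax8, Pax9, Ebf2, Bcl11b, Pou2f3 and Id4, most of which are known for roles outside the B lineage, such as Bcl11b in T cells. Pax1, Pax9, Bcl11b and Id4 had no DHS in the whole window. The background of own promoter DHS was 85.5% over CpG-rich protein-coding genes and 39.2% over the others. Of the 23 paralogs, 15 were CpG-rich. The 3 highest paralogs were Pou2f1 (314.66), which encodes the broadly expressed OCT1, Foxo3 (260.69) and Id2 (139.91). Further paralogs were named after their values were seen. In the PAX family Pax3 scored 22.81 and Pax6 11.22, against 265.27 at Pax5. In the EBF family Ebf4 scored 34.72 and Ebf3 31.9, against 141.97 at Ebf1. The E protein genes Tcf4 (109.15) and Tcf12 (93.38) were near Tcf3 (116.2), and Bach1 (67.17) lay below Bach2 (259.48). Pou2f1 and Id2 scored above Pou2f2 and Id3, whereas Pax5, Ebf1, Tcf3, Foxo1 and Bach2 scored above each relative that had a score. The relative of Bcl11a, Bcl11b, had none. Foxo3 (260.69) was close to Foxo1 (263.02).

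**Figure D4:**
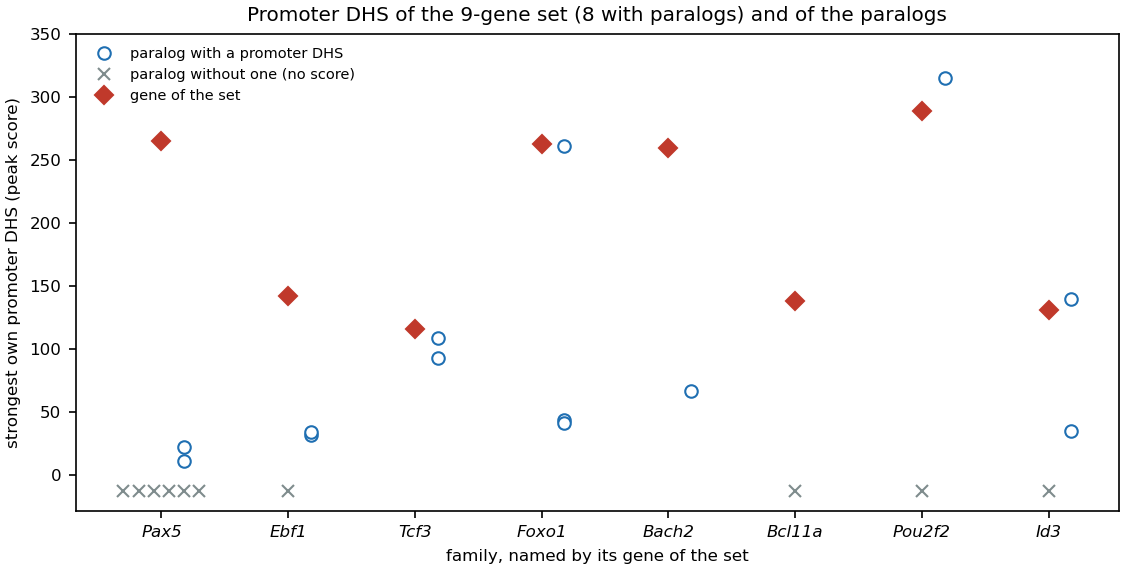
Score of the strongest own promoter DHS of 8 of the genes (red diamonds) and of their paralogs (open circles), by family; crosses below 0 mark paralogs without an own promoter DHS, which have no score. Pou2af1 has no paralog in the list and is not shown. The circles lie far below the diamond in the Pax5 and Ebf1 families, and the highest circle lies above it in those of Pou2f2 and Id3.

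Other factors of the B cell network also had own promoter DHS. All 15 that were measured had one, with a median score of 149 against 101 over protein-coding genes with one, from Lef1 (91.47) and Myb (94.19), which were below that background, to Xbp1 (216.62), Ikzf1 (248.49) and Ikzf3 (445.74). In 10 of the 15 it was at least 3 kb wide. Their median density of 10.9 DHS per 100 kb was above the 8.70 of the 9 genes. Genes that these factors are known to act on were taken in 2 lists. All 10 targets used in mature B cells had an own promoter DHS (background 57.0%), with a median score of 135, among them Ms4a1 (215.77) and Blnk (181.81). The 6 targets used in B cell progenitors, named after their values were seen, had one as well, with a median of 36.7, from Igll1 (14.39) and Rag2 (23.27) to Vpreb1 (80.13), the surrogate light chain and recombinase genes among them. The scores of the lists overlapped, since Fcer2a, the lowest of the mature targets, scored 72.14. An own promoter DHS at or above the median score of all DHS (32.65) was found at 3 of the 6 progenitor targets and 10 of the 10 mature targets, and at 11231 of 22350 protein-coding genes, so the former count was at the background. Over both lists, 13 of 16 targets kept one when promoters were narrowed to 1 kb either way of the TSS. The share of all protein-coding genes under that window was not computed.

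To see whether the factors' own words were frequent in the distal DHS of their genes, the central 300 bp of each of the 118 distal DHS were searched on both strands. The octamer ATGCAAAT, bound by OCT2, was found in 6 (5.08%, interval 2.35 to 10.7) against 2.07% of all distal DHS, a ratio of 2.45 (1.12 to 5.37). The PU.1 word GGAAGT is a core of the ETS family, to which PU.1 belongs, and its letters do not tell the members of that family apart. It was found in 44 (37.3%, interval 29.1 to 46.3) against 24.3%, a ratio of 1.53 (1.21 to 1.94), and 13 of the 44 were at Ebf1. These were the 2 of the 10 words whose interval did not include a ratio of 1, with no allowance for the number of words. Over DHS of all scores, whether the octamer interval included 1 turned on 1 site, in a DHS with a score of 16.14. With only those matches whose surrounding 30 bases occur once in the genome, the octamer was in 5 of 118 (4.24%) against 2.04%. The interval of the ratio of 2.08 (0.877 to 4.92) then included 1. This setting, which drops that site, was chosen after seeing the data. The octamer ratio was 4.18 among DHS at or above the median score, which leave out the same site, and no interval was computed for it. The PU.1 ratio was 1.17 over the central 600 bp. The others were close to the background or too rare to place. The E boxes bound by E2A were found in 19.5% (CAGCTG) and 22.9% (CACCTG) against 18.7% and 24.4%. The EBF1 word TCCCNNGGG was found in 5.08% against 5.39%. The forkhead word GTAAACA was found in 2 DHS, both at Pou2af1, or 1.69% against 4.22%. The Bach word TGANTCAGC was found in 0 of 118, which allows a share of up to 3.15% (Wilson), against 1.39%. The RUNX word TGTGGTT was found in 11.9% against 8.43%, with a ratio of 1.41 (0.859 to 2.30). The IRF-ETS word GGAANNGAA stood at 11.02% against 10.4% and the CTCF word CNAGGNGGC at 5.93% against 7.29%. The IRF-ETS word can overlap the PU.1 word, and the CTCF word can contain the CACCTG E box.

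**Figure D5:**
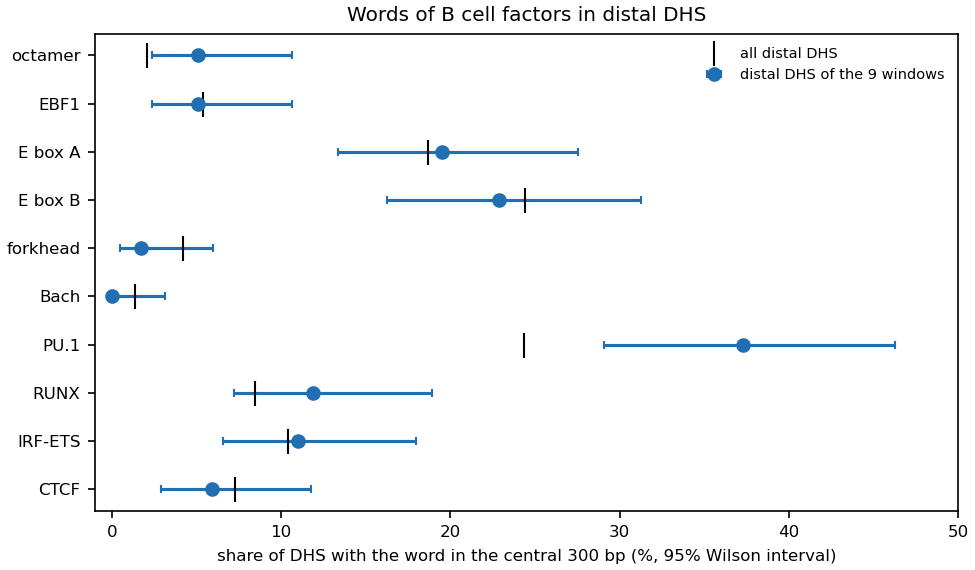
Share of distal DHS with each word in the central 300 bp (%), for the 118 distal DHS of the 9 windows (blue points with Wilson intervals) and for all 24945 distal DHS (black ticks). The tick lies outside the interval for the octamer and the PU.1 word, and inside it for the other 8.

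Of the 6 octamer sites, 5 are shown with the bases around them, since they were few. Each line gives 30 bases of mm9, 5′ to 3′, on the strand that reads ATGCAAAT, which is in capitals. In the order of the lines they lie at chr4:44693443-44693472 (plus), chr11:44523536-44523565 (minus), chr3:52194941-52194970 (plus), chr4:32316392-32316421 (plus) and chr11:24031978-24032007 (plus).
Pax5 site: aaaatagatttATGCAAATcccacaacctc
Ebf1 site: caggcttatgcATGCAAATtacctttcatc
Foxo1 site: agggactaagcATGCAAATacaagcgcctt
Bach2 site: aacaccaggaaATGCAAATcaaagccacag
Bcl11a site: tatatctgtgcATGCAAATttgggtccttt
The Pax5 site was in the intron 4 DHS with a score of 74.64, and the Ebf1 site 92.7 kb into the gene in a DHS of 34.34. The Foxo1 site was downstream of the gene (42.98) and the Bcl11a site inside it (44.82). The Bach2 site lay upstream, in a DHS centred at -9.47 kb from the gene start with a score of 55.16. Each of these 5 sequences of 30 bases occurred once in the genome, and the central 20 bases of the Bach2 site occurred 7 times and those of the other 4 once. The site not shown lay in repeated sequence.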

How the data were processed

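Accessible chromatin was mapped by DNase-seq in 1 DNaseI library, beside 1 input library. The authors deposited a peak list with positions, MACS peak names and a score for each peak. The submitters' processing notes name BWA 0.6.2, SAMtools and mm9. The version and settings of the caller for this library, and the scale of the score, are not given in the sources used here. The list holds no counts, so depth is unknown, and the input library has no file.

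Peaks were set against GENCODE M1 on the same build (chromosomes 1 to 19 and X, 47474 DHS). Windows, promoters and words were computed for the 9 genes and in the same way for 22350 protein-coding genes and 24945 distal DHS. The sequences come from NCBI build 37. Distances from the gene start are to the centre of a DHS. Spi1 was matched by its older symbol, and 1 of 16 network factors, Gfi1, was left out since the release does not list it as protein-coding. A DHS in 2 windows would be counted once. All comparisons are descriptive: exact Poisson intervals for densities, Wilson for shares of DHS, exact binomial for gene lists and a log interval for ratios of word shares. Python 3.11.15, pandas 2.3.3, numpy 2.4.6 and scipy 1.17.1 were used. The overlap and word searches were tested on simulated data.

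The genes and lists were chosen with earlier results of these data known. Named are all 9 genes with their highest promoter, highest distal and widest DHS, and from each list of paralogs, network factors and targets the 3 highest, with those lacking a promoter DHS where at most 12 did. Some genes and a sequence that this rule would name are not reported here. Other genes are named where they mark a range or share a window, after their values were seen. The alternatives were a threshold at the median score, other flanks and promoter windows, merging, covered bases and other scan lengths.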

Additional observations from a re-analysis of the deposited data

How the results depend on the processing

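Of 64 alternatives, 51 left a value within its counting interval, or a count within 1.5 times, and 13 moved it. The number of DHS in the windows was 87 at or above the median score, 94 in gene bodies alone and 118 with flanks of 10 kb. The density ratio to the genome rose to 5.59 with covered bases and was between 4.39 and 4.79 otherwise. The distal share was 57.5% at or above the median score, where 8995 of all 23761 DHS were distal. It was 72.9% over DHS whose nearest protein-coding TSS was that of the gene, noncoding promoters within the windows included. It was 74.7% with a promoter window of 1 kb on each side and 74.7% with TSSs of protein-coding genes alone. For the settings other than the score threshold, no share over all DHS was computed. The median distal score was 55.9 at or above the median score, which follows from that threshold. Of the word ratios, 27 of 31 stayed within the interval of the ratio, which was wide for rare words. Among these the octamer ratio rose from 2.45 to 4.18 at or above the median score, and the forkhead ratio from 0.402 to 0.849 over 150 bp. With octamer matches found once in the genome, added after seeing the data, the octamer ratio was 2.08 and its interval included 1. At or above the median score the ratio was 1.34 for CACCTG, 0 for the forkhead word and 0.201 for the CTCF word, and over 600 bp that of the PU.1 word fell to 1.17; the cause was not tested. All 9 genes and all 15 network factors kept an own promoter DHS under both the score threshold and the 1 kb window, and 10 and 13 paralogs did. Of the 16 targets, 13 did under each. Over protein-coding genes it was 11231 of 22350 under the score threshold, and for the 1 kb window the share was not computed. No paired analysis was possible because there is 1 library. Depth and the spread between animals limit every value and are unknown.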

Other observations

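The same 10 words were counted in the central 300 bp of the 30 own promoter DHS of the 9 genes, a count chosen after the values of the distal DHS had been seen. The IRF-ETS word GGAANNGAA, a composite that PU.1 binds with IRF4 or IRF8, was found in 8 (26.7%, Wilson interval 14.2 to 44.4) against 8.11% of all 22529 promoter DHS, a ratio of 3.29 (1.81 to 5.97). Of the 8, 3 were at Bach2, 2 at Bcl11a and 1 each at Ebf1, Pou2f2 and Id3. The Bach word TGANTCAGC was found in 2 (6.67%) against 0.919%, both at Bach2. The octamer was found in 0 of the 30 (interval up to 11.4%), against a background of 1.15%, and was too rare to place. The PU.1 word, at 23.3% against 22.1%, did not stand above the background at promoters. No allowance was made for the number of words.

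The windows of Blnk, an adaptor of B cell receptor signalling, and of Dntt, which encodes terminal transferase and acts in progenitors, shared a distal DHS with a score of 332.65, higher than any distal DHS of the 9 genes.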
